A study of Mus musculus with 8 samples.

Results

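NA1b is one of the noradrenergic neuron subtypes that the authors named in the mouse stellate ganglion, the sympathetic ganglion that supplies the heart and the forelimb. Of the 1303 neurons in the deposited data, 311 were NA1b, and 179 of these held at least 1 unique molecular identifier (UMI, the tag that marks one captured RNA molecule) of Gal while 132 held none. The split was thus made on a measured value, so the level of Gal itself is described here without a test, and all other genes were compared between NA1b neurons with and without Gal within each mouse. The question was whether an NA1b neuron in which Gal was detected differed in any other transcript from an NA1b neuron in which it was not.

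Stellate ganglia were taken from male C57BL6/J mice of 8 to 10 weeks that had received AAV-GFP in the heart and AAV-tdTomato in the front paws, and single cells were sequenced with the 10x Genomics system. The labels list 8 mice of 1 condition, without an untreated or unlabelled group, so neurons with and without Gal share every allele and agent and come from the same libraries. The libraries are named by mouse, while the protocol states that left and right ganglia were combined for digestion. Of the 8 mouse names in the data, 5 could be matched to a labelled sample. They are called mice 1 to 5 here, all are of batch 2, and they held 237 NA1b neurons, 142 with and 95 without Gal. The other 74 NA1b neurons came from the 3 unmatched mice and are counted as members but enter no value below. Mice 1, 2 and 5 had at least 10 neurons of both kinds (23 with and 15 without, 51 and 43, and 20 and 21) and made up the main comparison. Mice 3 and 4 had only 8 neurons without Gal each, against 23 and 25 with it, and were added in a comparison of 5 mice with a minimum of 5 neurons.

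Gal encodes the precursor of galanin, a neuropeptide stored in large dense-core vesicles and released beside the classical transmitter. Many sympathetic neurons make galanin together with noradrenaline, often with neuropeptide Y (Npy), and galanin acts through the G-protein-coupled receptors Galr1, Galr2 and Galr3. In sympathetic neurons Gal is known to be raised strongly by axon injury and by cytokines of the gp130 family. In the mouse genome GRCm38, Gal lies on the minus strand of chromosome 19 at 3409915 to 3414544 and is annotated as protein coding. Every level below is the mean over neurons of UMIs per 10000 UMIs of the neuron.

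The neurons of mice 1 to 5 held 916296 to 1196621 UMIs per mouse in all, of which the NA1b neurons held 187459 to 321469. Cell barcodes were shared between mice by 73 neurons of 21 barcodes, and none of these was NA1b. The NA1b neurons carried the markers of sympathetic neurons. The summed level of Dbh, Th, Snap25, Syt1, Pcsk1n and Prph ranged over mice from 96.0 to 112 UMIs per 10000 with Gal and from 86.2 to 109 without it. A UMI of GFP or tdTomato was held by 13 of the 237 neurons, 7 of them with Gal. Doublets were not removed here, and no step for them was found in the methods.

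Detection of Gal in NA1b mostly rested on 1 to 3 molecules. Of the 237 neurons of mice 1 to 5, 95 held 0 UMIs of Gal, 75 held 1, 24 held 2, 15 held 3, 17 held 4 to 6, none held 7 and 11 held 8 or more, up to 43. At the threshold itself, neurons with 1 UMI had a median Gal level of 3.498 UMIs per 10000, and neurons just outside it had 0. In a neuron without Gal of median depth (2597 UMIs), a count of 0 allows a level of up to 11.6 UMIs per 10000, so that absence of Gal could not be read from single neurons at this depth. Such limits cover counting error only.

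Averaged over all NA1b neurons of a mouse, Gal was at 4.53, 2.69, 5.13, 3.97 and 1.67 UMIs per 10000 in mice 1 to 5, a mean of 3.60 ± 1.40 (SD, n = 5). Its level was 10.3 ± 2.29 in NA1c, a neighbouring noradrenergic subtype, and 23.0 ± 10.0 in NA1a, the Npy-rich subtype (SD, n = 5 mice each). The ranges over mice did not overlap between NA1b (1.67 to 5.13), NA1c (7.46 to 13.4) and, for NA1b, NA1a (12.96 to 37.9), while NA1c and NA1a overlapped. Because the subtypes were clustered on the same cells, this order is a description.

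The share of NA1b neurons with Gal was 60.5%, 54.3%, 74.2%, 75.8% and 48.8% in mice 1 to 5, with a mean of 62.7% ± 11.96 (SD, n = 5). The exact 95% Clopper-Pearson intervals were wide, from 32.9% to 64.9% in mouse 5 and from 57.7% to 88.9% in mouse 4, and those of these mice overlapped. The share followed depth in every mouse. Among neurons above their mouse's median UMI count 78.9%, 63.8%, 93.3%, 87.5% and 60.0% had Gal, against 42.1%, 44.7%, 56.3%, 64.7% and 38.1% of the others. The gap was 27.6 ± 8.69 percentage points (SD, n = 5), of the same direction in all 5 mice. A neuron with more UMIs is more likely to hold 1 of Gal, so this gap is described without a test.

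When neurons with at least 2000 UMIs were thinned at random to 2000 each, the share of NA1b neurons with Gal dropped to 44.4%, 39.7%, 53.3%, 28.6% and 24.3% in mice 1 to 5. Pooled over these mice it was 37.9% of 195 NA1b neurons (95% interval 31.1% to 45.2%), against 59.9% of 237 without thinning. At the same depth the share was 75.7% of 169 NA1c neurons and 88.6% of 176 NA1a neurons. No subtype here is known to lack Gal. The lowest pooled share outside NA1b among subtypes with over 20 thinned neurons was in Ach2, a cholinergic subtype, with 25.6% of 39 neurons (95% interval 13.04% to 42.1%), or 33.3% without neurons of shared barcodes, and the interval overlapped that of NA1b. Before thinning, 32.6% of 46 Ach2 neurons of a median 3228 UMIs had Gal, or 48.4% without those of shared barcodes, and the median of NA1b was 3338 UMIs. The part of free RNA in the detection of Gal was not tested.

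**Figure D1:**
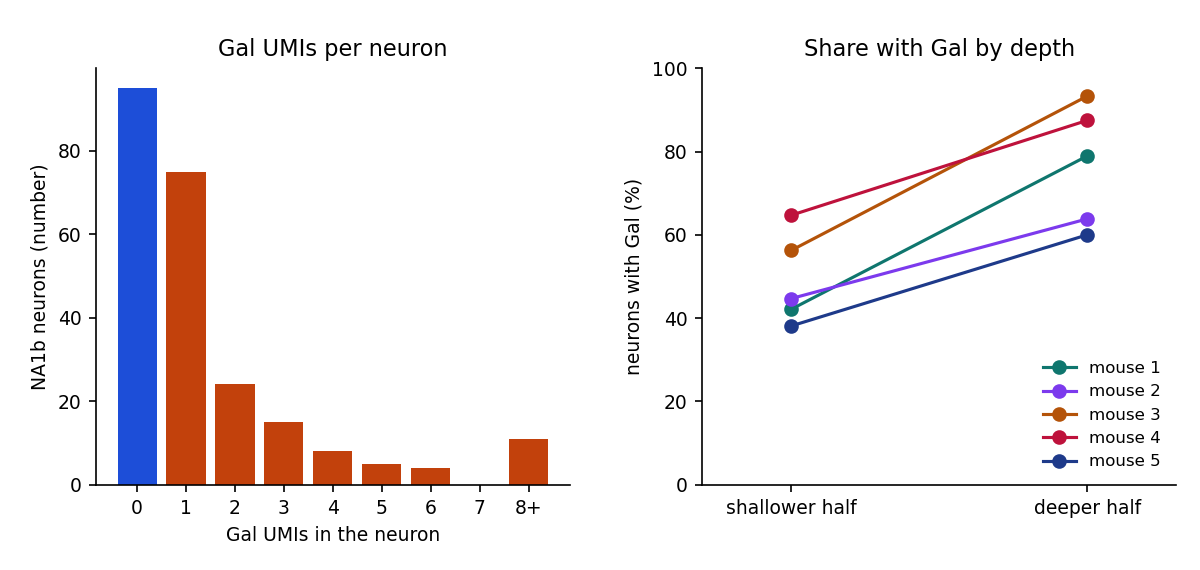
Left, number of NA1b neurons of mice 1 to 5 (y axis) by the number of Gal UMIs they held (x axis), in blue for 0 and in orange for 1 or more. Right, percent of NA1b neurons with Gal (y axis) below and above the median UMI count of each mouse, 1 line per mouse. Neurons with 0 or 1 UMI made up most of NA1b, and the share with Gal was greater among deeper neurons in all 5 mice.

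Seen from the other side, the same relation made neurons with Gal deeper than neurons without, and it is again described without a test. Their median depth was 3643, 2782, 6883, 9726 and 7719 UMIs in mice 1 to 5, and that of neurons without Gal was 2149, 2468, 3942.5, 2460 and 5244. In mice 1, 2 and 5 the log2 ratio of these medians was 0.50 ± 0.30 (SD, n = 3), with the deeper neurons being those with Gal in each of the 3. Over 5 mice it was 0.86 ± 0.68 (SD), above 0 in each. The single neurons overlapped widely within every mouse. The share of mitochondrially encoded RNA moved both ways. It was 4.49% ± 1.63 with Gal and 4.54% ± 1.66 without (SD, n = 5 mice), and it was greater with Gal in 2 of 5 mice. An exact two-sided permutation of signs over mice gave p = 0.688.

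**Figure D2:**
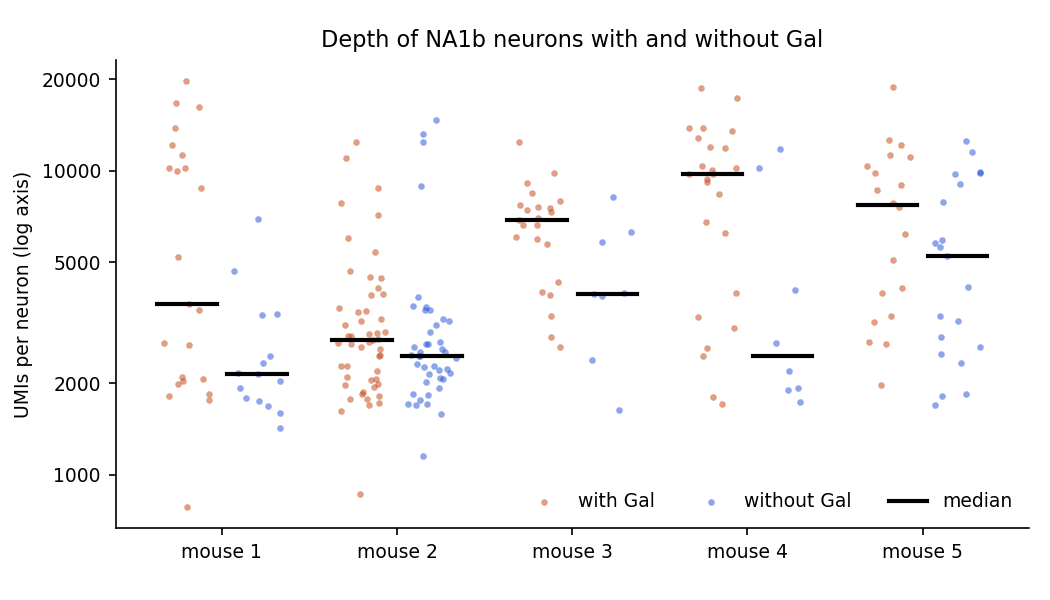
UMIs per NA1b neuron (y axis, log scale) in mice 1 to 5, for neurons with Gal (orange) and without Gal (blue). Each point is a neuron and each black line a median. The median was greater with Gal in all 5 mice, while the points of both kinds overlapped.

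No gene was called as different between NA1b neurons with and without Gal in the main comparison. Of 4047 genes tested with limma in mice 1, 2 and 5, none had a Benjamini-Hochberg adjusted p below 0.05 (0% called), and 218 (5.39%) had an unadjusted p below 0.05, 113 with a higher and 105 with a lower level in neurons with Gal. This split depended on the processing, being 262 against 50 with averaged natural log values, 154 against 90 in 5 mice and 153 against 47 when the neurons of 5 mice were thinned to 2000 UMIs. The smallest adjusted p was 0.604, and the median difference over all genes was 0.02 on the log2 scale. In 5 mice 0 of 3914 genes were called (0%) and 244 (6.23%) had an unadjusted p below 0.05, with a smallest adjusted p of 0.313. There the median difference over all genes was 0.08, and 57.8% of genes were above 0. Each value of the 5-mouse comparison below contains this shift. Leaving out mouse 5 gave 1 call, Man2a1, a mannosidase of glycoprotein processing that is named because it was the lone call, while leaving out mouse 1 or mouse 2 gave 0.

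The size of the difference that these profiles could show depended on the level of the gene. For the 212 genes with a mean of at least 5 UMIs per 10000, the 95% interval of the log2 difference reached a median of 0.41 to each side, a fold of 1.33. For the other 3835 genes it reached 0.83, a fold of 1.78. Differences on this scale are between log2(mean + 0.1) values, which understates changes of low genes. Fewer positive cells and less RNA per cell cannot be told apart in such means. All mice of the main comparison shared a direction for 56 of the 212 genes (26.4%) and for 1022 of the 3835 (26.6%). A shared direction in these mice alone thus does not set a gene apart. Many genes below were named for a small p. How many of all genes share a direction in 5 mice, or have ranges that do not overlap, was not counted.

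**Figure D3:**
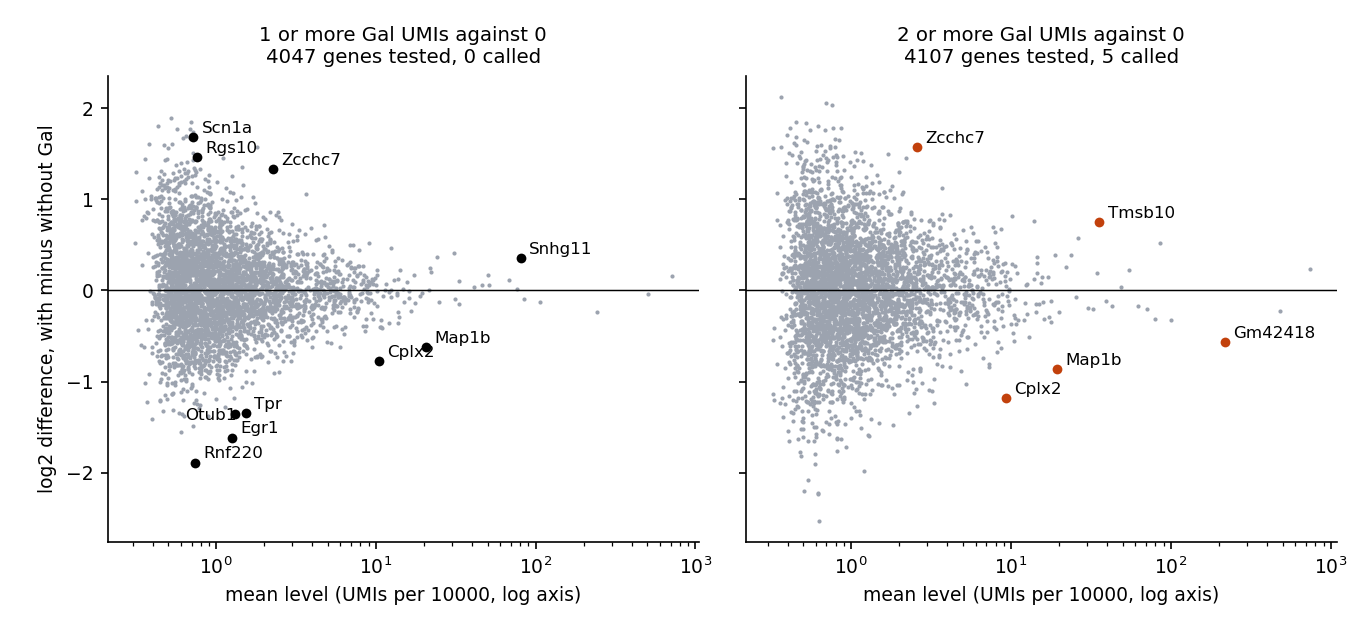
Log2 difference between NA1b neurons with and without Gal (y axis) against the mean level in UMIs per 10000 (x axis, log scale), 1 grey point per gene tested, in mice 1, 2 and 5. Left, 1 or more UMIs of Gal against 0, with the 10 genes of smallest p in black, none of which was called. Right, 2 or more UMIs against 0, with the 5 called genes in orange.

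The 10 genes with the smallest unadjusted p were Tpr, Zcchc7, Map1b, Cplx2, Snhg11, Otub1, Egr1, Rnf220, Scn1a and Rgs10, and none of them was called. Map1b, a microtubule-associated protein of axons, was at 15.8, 18.5, 11.4, 14.6 and 13.9 UMIs per 10000 with Gal in mice 1 to 5 and at 33.5, 20.9, 23.7, 17.7 and 21.2 without it. Its level was thus lower with Gal in every mouse, though the groups overlapped between mice. The log2 difference was -0.62 ± 0.16 (SE, limma adjusted p = 0.604) in 3 mice and -0.64 ± 0.15 (adjusted p = 0.313) in 5.

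Cplx2, which encodes complexin 2, a regulator of vesicle fusion, was at 8.06, 11.9, 3.49, 6.02 and 3.66 UMIs per 10000 with Gal and at 19.1, 12.9, 6.60, 8.46 and 7.26 without. Here too each mouse had the lower level in neurons with Gal, by -0.77 ± 0.20 on the log2 scale in 3 mice (SE, limma adjusted p = 0.604). Zcchc7, a zinc-knuckle protein of the nuclear RNA surveillance machinery, was at 3.28, 2.73, 5.29, 2.95 and 3.42 with Gal and at 0.471, 1.77, 4.49, 1.73 and 1.88 without. It was higher with Gal in 5 of 5 mice, with a log2 difference of 1.33 ± 0.34 in 3 mice (adjusted p = 0.604). Tpr, a protein of the nuclear pore basket, was lower with Gal in 5 of 5 mice, at 0.543 to 1.74 UMIs per 10000 against 1.93 to 2.59, and for this gene the groups did not overlap. Its difference of -1.35 ± 0.34 was not called in 3 mice (limma adjusted p = 0.604).

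The remaining low-p genes were mostly near 1 UMI per 10000. Snhg11, an abundant long noncoding RNA of neurons, was at 74.4 to 135 UMIs per 10000 with Gal and at 49.6 to 112 without, with a log2 difference of 0.36 ± 0.10 (SE, limma adjusted p = 0.815). Scn1a, a voltage-gated sodium channel, was at 0.987, 1.08, 1.09, 0.993 and 1.28 UMIs per 10000 with Gal and at 0.0960, 0.494, 0, 1.63 and 0.358 without, so that mouse 4 went the other way. Rgs10, a regulator of G-protein signalling, was at 0.966 to 1.46 with Gal and at 0.211 to 1.15 without it.

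None of the genes that separate NA1b from its neighbouring subtypes was called. Npy, which is highest in NA1a, was at 9.04, 16.9, 8.38, 7.88 and 5.82 UMIs per 10000 with Gal in mice 1 to 5 and at 7.37, 13.3, 3.64, 6.65 and 6.88 without. It was higher with Gal in 4 of 5 mice and lower in mouse 5. The log2 difference was 0.13 ± 0.19 in 3 mice (SE, 95% interval -0.25 to 0.51, limma adjusted p = 0.928) and 0.36 ± 0.18 in 5 mice (95% interval -0.00 to 0.73, adjusted p = 0.771). Cntn5, a neural cell adhesion molecule of the NA1a side, reached at most 0.589 UMIs per 10000 in any profile, and Pcp4, a calmodulin-binding protein, at most 0.568, and neither passed the filter on low values.

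Of the 8 genes on the NA1b side, all were tested, none was called, and their median log2 difference was -0.15. Col5a3, a collagen chain, was at 28.1, 32.9, 40.4, 29.3 and 31.1 UMIs per 10000 with Gal and at 29.6, 50.0, 43.5, 38.2 and 26.6 without, a log2 difference of -0.15 ± 0.14 in 3 mice (95% interval -0.44 to 0.13, limma adjusted p = 0.891). Kcnt1, a sodium-activated potassium channel, was at 3.84 to 8.45 with Gal and at 2.86 to 9.36 without. Casz1, a zinc-finger transcription factor, was at 2.75 to 5.65 with Gal and at 2.98 to 5.73 without. Both ranges overlapped almost fully. On the NA1c side, Sctr, the secretin receptor, was at 1.70, 1.88, 0, 0.421 and 0.150 with Gal and at 0.418, 1.63, 0, 0.919 and 0.346 without, and Rxfp1, a relaxin receptor, had a log2 difference of 0.00 ± 0.44 in 3 mice.

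**Figure D4:**
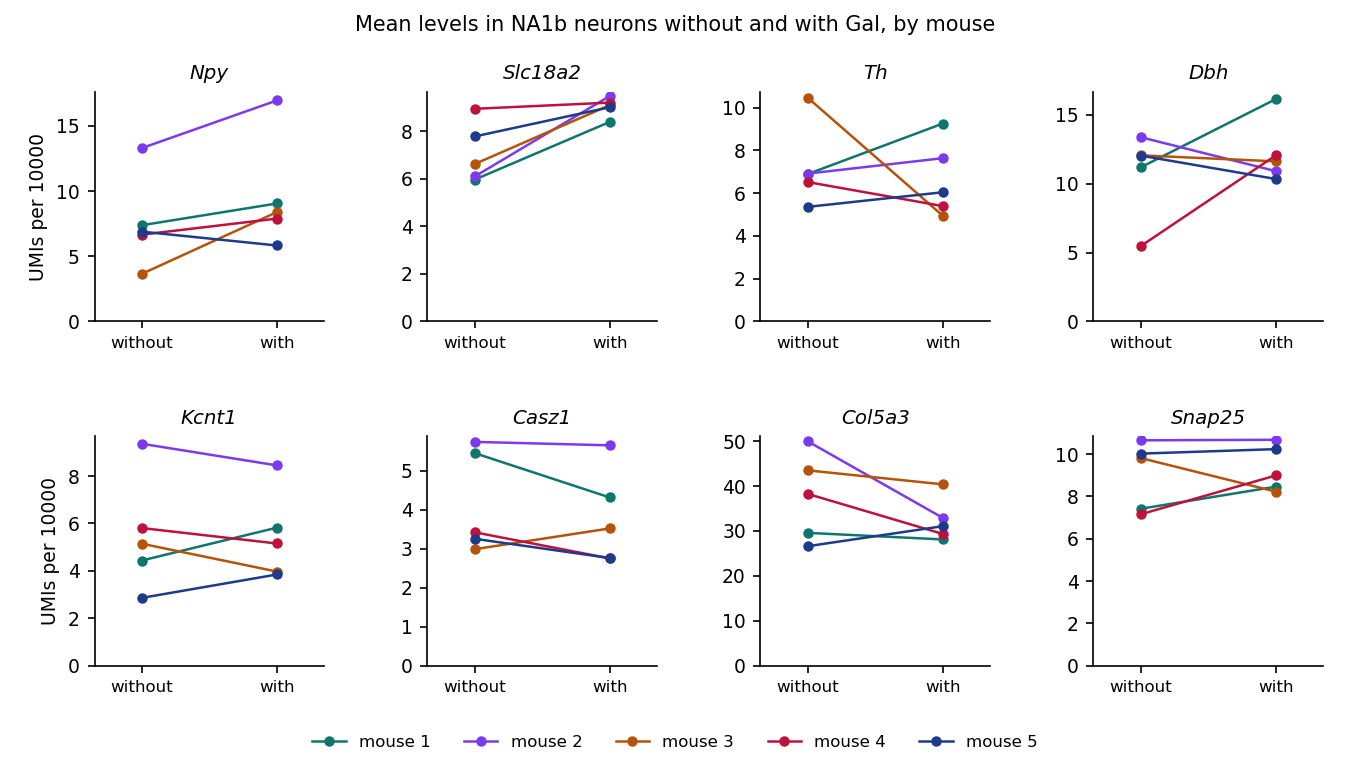
Mean level in UMIs per 10000 (y axis) of 8 genes in NA1b neurons without and with Gal (x axis), 1 line per mouse. The lines of Slc18a2 run upwards in all 5 mice, those of Npy and Snap25 in 4, and those of Th in 3. Those of Dbh and Kcnt1 run upwards in 2 and those of Casz1 and Col5a3 in 1.

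The noradrenergic machinery was present in both kinds of neuron. Of 14 genes of noradrenaline synthesis, storage, uptake and breakdown, 13 were tested and none was called, with 6 differences above and 7 below 0. Their median was -0.13 in 3 mice and 0.08 in 5 mice, where the median over all genes was also 0.08. Slc18a2, the vesicular monoamine transporter, was at 8.40, 9.49, 9.11, 9.21 and 9.02 UMIs per 10000 with Gal and at 5.97, 6.10, 6.63, 8.95 and 7.79 without. Each mouse had the greater level with Gal, by a log2 difference of 0.44 ± 0.19 in 3 mice (SE, unadjusted p = 0.029, limma adjusted p = 0.828). Th, the rate-limiting enzyme of catecholamine synthesis, was at 9.26, 7.64, 4.94, 5.39 and 6.04 with Gal and at 6.89, 6.91, 10.5, 6.52 and 5.36 without, higher with Gal in 3 of 5 mice. Dbh, which makes noradrenaline from dopamine, was at 10.3 to 16.2 with Gal and at 5.46 to 13.4 without, with a log2 difference of 0.01 ± 0.18 in 3 mice.

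Other neuropeptide genes gave little to compare. Of 27 listed neuropeptide genes besides Gal, 25 were in the data, 13 of them had no UMI in any NA1b neuron of the 5 mice, and Npy alone passed the filter. Among the galanin receptors, Galr2 reached at most 0.198 UMIs per 10000 in any profile and was not tested, while Galr1 and Galr3 were not among the genes in the data. Of 20 granins and prohormone-processing genes, 13 were tested, 8 differences were above and 5 below 0, none was called, and the median was 0.10. Scg2, which encodes secretogranin II of dense-core vesicles, was at 2.79, 2.05, 3.74, 2.93 and 3.62 UMIs per 10000 with Gal and at 2.64, 1.33, 1.05, 1.45 and 2.07 without. This was higher with Gal in 5 of 5 mice, by a log2 difference of 0.83 ± 0.26 (SE, limma adjusted p = 0.546), and by 0.48 ± 0.28 in 3 mice (adjusted p = 0.828). Chga, chromogranin A, was at 0.765 to 2.92 with Gal and at 0.532 to 1.72 without, higher with Gal in 4 of 5 mice. Pam, the enzyme that amidates galanin and other peptides, was at 2.28 to 2.86 with Gal and at 1.32 to 2.15 without, a pair of ranges that did not overlap, with a log2 difference of 0.44 ± 0.25 in 5 mice (adjusted p = 0.771).

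The genes known to act with Gal after axon injury were not called either. Of 25 injury and regeneration genes, 13 were tested, 7 were above and 6 below 0, and the median log2 difference was 0.04. Stmn2, a tubulin-binding protein of growing axons, was at 19.7 to 29.7 UMIs per 10000 with Gal and at 17.2 to 32.1 without. Of 14 genes of the gp130 cytokine receptors and their signalling, 5 were tested, 2 above and 3 below 0, with a median of -0.08 (0.05 in 5 mice). Among 11 receptors for neurotrophins and the GDNF family, 5 were tested and the median was 0.09. Of the 19 sympathetic transcription factors, 14 were tested, 10 above and 4 below 0, with a median of 0.22.

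Immediate early genes, which respond to activity and to dissociation, lay on one side in the main comparison, without any call. All 5 of the 23 listed that were tested had a lower level with Gal, with a median log2 difference of -0.71, against 0.02 over all genes tested, and 1 of them had an unadjusted p below 0.05. In 5 mice 4 were below and 1 above 0, with a median of -0.43. At equal depth in these mice, with neurons thinned to 2000 UMIs, 2 were above and 2 below 0, with a median of 0.16 against 0.20 over all genes. The gene of low p was Egr1, at 0.181, 0.924, 0.881, 0.755 and 0.667 UMIs per 10000 with Gal and at 3.20, 1.15, 0, 2.72 and 1.44 without. Mouse 3 went the other way, and mouse 1 had the widest gap. The log2 difference of -1.62 ± 0.46 in 3 mice (SE, limma adjusted p = 0.815) was -0.65 ± 0.58 in 5 mice (adjusted p = 0.858), and without mouse 1 in the 5-mouse comparison it was 0.07.

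Genes of excitability and release were mixed. Of 28 potassium channel genes 10 were tested, with 7 differences above and 3 below 0 and a median of 0.17, and of 22 sodium and calcium channel genes 16 were tested, with 9 above and 7 below 0 and a median of 0.03. Cacna1a, the pore of P/Q-type calcium channels, was at 4.86, 7.499, 3.33, 4.40 and 4.62 UMIs per 10000 with Gal and at 2.23, 6.54, 5.18, 4.89 and 2.45 without, so that mice 3 and 4 went against mice 1, 2 and 5. Of 23 synaptic vesicle genes 19 were tested, with 8 above and 11 below 0 and a median of -0.04. Sv2a, a vesicle glycoprotein, was at 2.03 to 3.00 with Gal and at 1.08 to 1.78 without, ranges that did not overlap, with a log2 difference of 0.81 ± 0.30 in 3 mice (SE, limma adjusted p = 0.815). Among the acetylcholine receptors, by which sympathetic neurons are driven, 4 of 10 were tested, all below 0 with a median of -0.48, while in 5 mice 3 were tested with a median of 0.19. Of 10 adrenergic and Npy receptors only Adra2a was tested, and of 5 acetylcholine genes only Ache, with log2 differences of 0.49 and -0.43 in 3 mice and of -0.13 and 0.20 in 5 mice.

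Of 13 heat shock chaperones 12 were tested, with a median log2 difference of 0.07 (-0.03 in 5 mice), and of 13 mitochondrially encoded genes all were tested, with a median of 0.00. Among the markers of other cells, those of satellite glia had the highest sums. The 10 satellite glia markers summed to 3.62 to 16.6 UMIs per 10000 over mice with Gal and to 2.92 to 30.02 without, none was at 0 in all neurons, and 6 were tested with a median of -0.20. Apoe, a lipoprotein gene of satellite glia, was at 9.64, 8.24, 2.00, 4.03 and 3.16 with Gal and at 16.6, 7.62, 2.24, 7.62 and 4.49 without. It was found in 83.8% of neurons with and 87.4% of neurons without Gal, and in the neurons without Gal of mouse 1 it was above Dbh (11.2). The part of satellite glia RNA in the differences was not tested. The 6 Schwann cell markers summed to 1.54 to 2.96 with and 1.51 to 3.49 without Gal, with Prx and Mag at 0. The 6 fibroblast markers summed to 0.716 to 2.04 and 0.198 to 2.60, with none at 0. The 6 endothelial markers summed to 0.121 to 0.906 and 0 to 1.45 with Cdh5 and Emcn at 0. The 6 immune markers summed to 0.191 to 0.588 and 0.332 to 2.16 with Ptprc at 0, lower with Gal in each of the 5 mice, and the 5 smooth muscle markers to 0 to 0.241 and 0 to 0.656 with Acta2 at 0.

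No gene was called at equal depth either. Among neurons with at least 2000 UMIs thinned to 2000, only mice 2 and 5 kept 10 neurons of both kinds, and 0 of 4770 genes were called with limma (0%), while 267 (5.6%) had an unadjusted p below 0.05. With at least 5 neurons all 5 mice entered, and 0 of 4239 genes were called (0%), with 200 (4.72%) at an unadjusted p below 0.05. In these 5 mice the median over all genes was 0.20 on the log2 scale, which each difference below contains. Thinning widened the intervals. Over all genes tested in these 5 mice, the 95% interval reached a median of 1.505 to each side. Before thinning it reached 0.807 in neurons of at least 2000 UMIs. In mice 2 and 5 it reached 1.382 with thinning and 0.834 before. The lack of calls at equal depth thus leaves room for larger differences than the main comparison does. Npy differed by 0.50 (95% interval 0.01 to 1.00, adjusted p = 0.864), Slc18a2 by 0.32 (-0.12 to 0.77), Map1b by -0.39 (-0.78 to 0.00) and Cplx2 by -0.57 (-1.08 to -0.05), all uncalled. Tpr stood at -0.49 and Otub1, a deubiquitinase, at 0.30, the latter on the other side of 0 from its -1.36 in the main comparison. When the neurons were split by Gal after thinning instead, 0 of 4108 genes in 3 mice were called.

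A stricter split gave a few calls. With at least 2 UMIs of Gal against 0, and the neurons of 1 UMI left out, 5 of 4107 genes (0.122%) were called in mice 1, 2 and 5, which had 12, 14 and 11 neurons with Gal. Lower with Gal were Gm42418, by -0.56 on the log2 scale (limma adjusted p = 0.0128), Cplx2, by -1.18 (0.0191), and Map1b, by -0.86 (0.0297). Higher were Tmsb10, which encodes an actin-binding thymosin, by 0.75 (0.0328), and Zcchc7, by 1.58 (0.0499). Gm42418 is a long noncoding RNA of chromosome 17 (GRCm38 39846958 to 39848788, plus strand) whose locus is known to overlap ribosomal RNA sequence.

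Averaged over mice, the levels by number of Gal UMIs were ordered in some of these genes and not in others. The genes were picked by their difference between 0 and 2 or more UMIs. Cplx2 averaged 10.8 ± 5.20 UMIs per 10000 at 0 UMIs of Gal, 8.21 ± 3.97 at 1 and 4.85 ± 1.94 at 2 or more (SD, n = 5 mice). Map1b averaged 23.4 ± 6.01, 16.6 ± 3.59 and 12.8 ± 2.296. Tmsb10 averaged 31.8 ± 10.9, 32.1 ± 10.9 and 47.7 ± 9.88, and neurons with 1 UMI of Gal were thus level with those without. Zcchc7 averaged 2.07 ± 1.47, 2.87 ± 0.567 and 4.09 ± 1.21. Within single mice the order did not always hold. At 0, 1 and 2 or more UMIs, Map1b was at 20.9, 20.0 and 14.5 in mouse 2 but at 17.7, 18.6 and 11.4 in mouse 4. Cplx2 was at 12.9, 13.4 and 7.65 in mouse 2, and Zcchc7 at 4.49, 3.51 and 6.07 in mouse 3. Gm42418 varied most between mice, from 95.1 to 508 without Gal and from 45.7 to 322 with 2 UMIs or more, and was lower in the latter in each mouse.

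Depth moved with this stricter split. The median depth was 9485, 3312.5, 7489, 9578 and 9005 UMIs in neurons with 2 UMIs of Gal or more in mice 1 to 5, against 2149, 2468, 3942.5, 2460 and 5244 without Gal. Among neurons without Gal alone, the deeper ones differed from the shallower ones of the same mouse in the same direction for 4 of the 5 genes. The log2 difference of deeper minus shallower neurons in mice 1, 2 and 5 was -0.67, -0.64 and -1.33 for Gm42418, -0.49, -0.60 and -1.93 for Cplx2, -1.05, -0.23 and -1.001 for Map1b, and 0.60, 0.37 and 0.14 for Tmsb10. For Zcchc7 it was -0.83, 1.10 and 2.70. In neurons with at least 2000 UMIs of all 5 mice, 0 genes were called with this split by limma, with 276 at an unadjusted p below 0.05, and the differences were -0.55 for Gm42418, -0.86 for Cplx2, -0.61 for Map1b, 0.61 for Tmsb10 and 1.05 for Zcchc7. Thinned to 2000 UMIs, these differences were -0.57, -0.85, -0.59, 0.60 and 0.98, none of them called, and 1 other gene, Pfdn5, a prefoldin subunit, was called.

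The calls also depended on single mice and settings. Leaving out mouse 1 or mouse 5 gave 0 calls and leaving out mouse 2 gave 7. A pseudocount of 1 gave 0, and removal of the neurons with 8 or more UMIs of Gal, which left 2 mice, gave 0. In 5 mice 4 of 3909 genes were called (0.102%), all lower with Gal, namely Gm42418, Cplx2, Map1b and Uhmk1, a kinase with an RNA recognition motif, while Tmsb10 (0.63, limma adjusted p = 0.0936) and Zcchc7 (1.19, adjusted p = 0.109) were not.

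**Figure D5:**
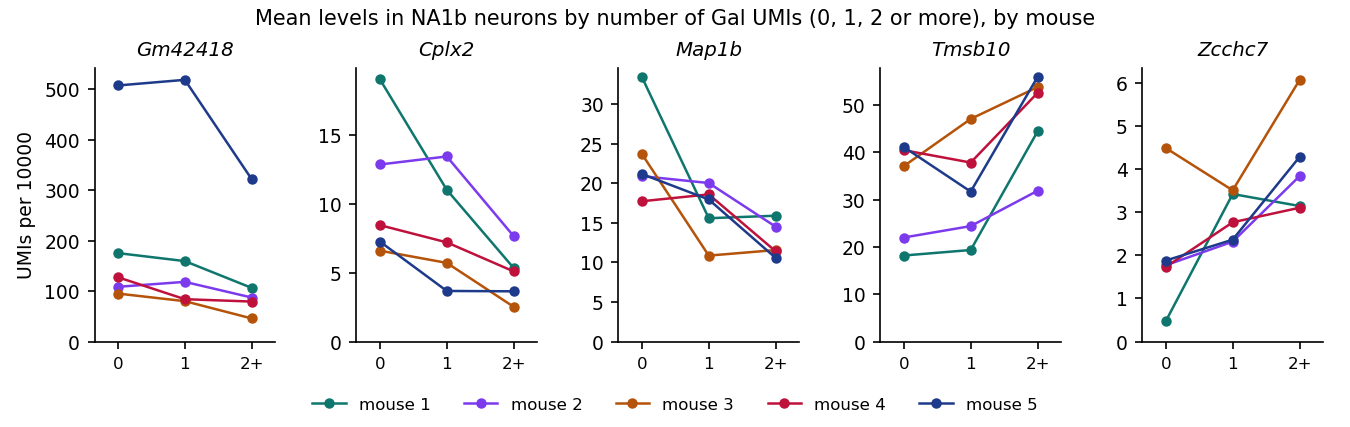
Mean level in UMIs per 10000 (y axis) of the 5 genes called with at least 2 UMIs of Gal against 0, in NA1b neurons with 0, 1 and 2 or more UMIs of Gal (x axis), 1 line per mouse. Gm42418, Cplx2 and Map1b were lower at 2 or more UMIs than at 0 in all 5 mice and Tmsb10 and Zcchc7 higher.

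The NA1b neurons richest in Gal were also compared by the genes that mark the subtypes in which Gal is high. The 11 neurons with 8 or more UMIs came from mice 1 to 4, had a median of 9859 UMIs and a median Gal level of 15.2 UMIs per 10000, near the median of 19.0 in NA1a and above the 6.95 in NA1c. Their median Npy was 2.55 UMIs per 10000, against 5.86 in the 95 NA1b neurons without Gal, 83.5 in NA1a and 44.0 in NA1c. Their mean Npy lay in the other direction, at 12.6 against 9.57 without Gal, and the highest of the 11 neurons stood at 78.6. None of the 11 had a UMI of Pcp4 or Cntn5, which were found in 77.5% and 36.3% of 182 NA1a neurons. Sctr was found in 9.09% of the 11, against 88.4% of 216 NA1c neurons. In the 95 NA1b neurons without Gal these genes were rare too, with Pcp4 in 6.32%, Cntn5 in 7.37% and Sctr in 9.47%. With 0 of 11, up to 3 in 11 such neurons could hold a UMI, and no limit follows on how many express these genes. Col5a3 averaged 22.7 in the 11 neurons and 40.0 in those without Gal, against 7.47 in NA1a and 12.4 in NA1c. Kcnt1 averaged 3.24 and 6.49, against 1.14 in NA1a and 2.70 in NA1c, and Casz1 2.19 and 4.71, against 1.48 and 1.81. The mean levels of these NA1b genes were thus lower in the 11. The shares with a UMI were higher, with Kcnt1 in 100% against 82.1% and Casz1 in 72.7% against 67.4%. These values are pooled over mice and are a description, since the neurons were chosen by Gal and the subtypes were clustered on the same cells. The pools also differed in mice. Mice 1 to 4 gave 3, 1, 5 and 2 of the 11, while mouse 2 gave 43 of the 95 without Gal. Among neurons without Gal, mouse 2 had the highest mean Npy (13.3) and Col5a3 (50.0), so mouse and Gal cannot be told apart in these contrasts.

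The contrast with and without Gal was also set against that of NA1c, in mice 1, 2, 4 and 5, which had at least 5 neurons of each kind in both subtypes. Of 5426 genes, 2 (0.0369%) were called as different by limma, both with a lower value in NA1b. For Atp5d, a subunit of the mitochondrial ATP synthase, the difference with minus without Gal was -0.05 in NA1b and 2.304 in NA1c, a gap of -2.35 ± 0.50 (SE, adjusted p = 0.0119), below 0 in 4 of 4 mice. In NA1b it was at 4.41, 4.40, 6.48 and 3.95 UMIs per 10000 with Gal and at 5.15, 3.82, 6.51 and 4.47 without. In NA1c it was at 3.99, 3.71, 6.90 and 3.18 with Gal and at 1.45, 2.00, 0 and 1.75 without. For Hand2, a transcription factor of noradrenergic identity, the gap was -2.04 ± 0.46 (adjusted p = 0.0257), with 0.22 in NA1b and 2.27 in NA1c, and below 0 in 4 of 4 mice.

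Both genes were at 0 in the NA1c neurons without Gal of mouse 4, which numbered 5, and the fitted gap thus depended on the pseudocount. The NA1c neurons without Gal numbered 6, 17, 5 and 5 in the 4 mice, and the median gap over all genes was -0.36. With a pseudocount of 1 the adjusted p was 0.437 for Atp5d and 0.833 for Hand2. Without mouse 4 the gaps were -1.09 and -1.29 (adjusted p = 0.753 and 0.589), and 2 other genes, Avil and Adgrl1, were called. Without mouse 1 or 5 neither gene was called and without mouse 2 only Atp5d was (adjusted p = 0.0293). For Npy the gap between the subtypes was -0.52 ± 0.25 (95% interval -0.999 to -0.03, adjusted p = 0.659).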

How the data were processed

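The authors aligned 10x Genomics reads with Cell Ranger 2.1.1 (genome mm10), filtered and normalized cells with Seurat and named the subtypes. The deposited values are on a natural log scale, ln(1 + UMIs per 10000), for 19224 genes. UMIs were recovered here from the smallest step of each neuron, and 100% of the nonzero values came out whole within 0.01. Because the values are not counts, no count model was used. No expression column was left out, and the 3 mouse names without a matching label entered only counts of members.

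For each mouse and kind of neuron, UMIs per 10000 were averaged over neurons. A gene was kept if as many profiles as mice reached a mean of 0.5, and Gal was left out. The fit was on log2(mean + 0.1), using limma 3.58.1 (R 4.3.3), with the mouse as a block and a trend in the prior variance, and a call required an adjusted p (Benjamini-Hochberg) under 0.05. The profiles are paired since both come from one animal, and their deviations from the group means correlated by 0.09, 0.27 and 0.31 in mice 1, 2 and 5. Thinning drew 2000 UMIs per neuron without replacement, so that shallower neurons were left out. Python 3.11.15, SciPy 1.17.1 and NumPy 2.4.6 gave the other values, and all tests are two-sided. The fit was also run on simulated neurons. Within a mouse and kind these varied only in depth and counting error, so the run sets no limit on what these data could show.

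The genes named were called genes of 1 direction in all mice, the 10 genes of smallest p where under 10 were called, up to 3 members of smallest p in each of 27 gene lists, and a fixed set of subtype, noradrenergic and galanin receptor genes. Genes called under other settings are named besides, and 1 gene that met these rules, with its result for the spread between mice, is not reported here. The members and the lists were chosen with earlier results of these data known.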

Additional observations from a re-analysis of the deposited data

Results flagged for a closer look

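In 79 sets of 5 values, 1 value per mouse, 4 had 1 mouse far from the others, where chance gives about 1 in 20. All are log2 differences between NA1b neurons with and without Gal. Junb, an immediate early gene, stood at 2.12 in mouse 3 and at -1.54 to -0.53 in the others. In mouse 1, Snhg11 stood at 0.58 (0.19 to 0.27 in the others), Stmn4 at 1.02 (0.02 to 0.28) and Zcchc7 at 2.56 (0.23 to 0.83). None of these genes was called in the main comparison.

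The contrast of neurons with and without Gal differed between NA1b and NA1c for Atp5d, by -2.35 on the log2 scale, and for Hand2, by -2.04, both by a limma test of the difference itself. Both calls were lost with a pseudocount of 1 (limma adjusted p = 0.437 and 0.833). Without mouse 4, whose 5 NA1c neurons without Gal held neither gene, the gaps were -1.09 and -1.29 and were not called. The median gap over all genes in the 4 mice was -0.36.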

How the results depend on the processing

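The count of 0 genes in the main comparison stayed 0 with a pseudocount of 1, other filters on low values and no replicate block (0 genes, 92 at an unadjusted p below 0.05). It also stayed 0 with a minimum of 5 neurons, summed UMIs, levels without Gal in the total, and without labelled or Npy-rich neurons. With profiles split by depth the count was 0 too, though the 7 blocks came from at most 5 mice and were not independent. It became 2 with averaged natural log values (Malat1 and Snhg11, both higher with Gal), 1 in neurons of at least 2000 UMIs without thinning (Cntnap5a, higher, 2 mice), 5 with at least 2 UMIs of Gal against 0, and 0 to 1 when each mouse was left out. Of the settings added after the data were seen, 5 mice gave 8 genes with averaged natural log values, all higher with Gal, and 4 genes with at least 2 UMIs of Gal. The cause of these calls was not tested. Thinned to 2000 UMIs, the count stayed 0 with a second draw, a split after thinning, no replicate block and each of the 5 mice left out, and was 1 with at least 2 UMIs of Gal. Leaving out a mouse could not be fitted with the 2 thinned mice. The 2 genes that differed between NA1b and NA1c became 0 with a pseudocount of 1 and 0 to 2 when a mouse was left out, and the version with thinned or deep neurons could not be fitted, since 1 mouse remained. The named genes gave 2166 values over all settings. In 226 of these an uncalled gene changed sign, in 18 a gene became called, and no called gene changed sign. The ratio of depths kept its direction with means in place of medians (0.62 on the log2 scale).

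Depth limits the split. At the median depth of NA1b neurons without Gal, 1 UMI is worth 3.85 UMIs per 10000, while Gal averaged 3.60 over the subtype.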
